A study of Mus musculus with 6 samples.

Results

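Stathmins and tubulin isotypes were followed in hepatocytes 4 days after delivery of Sox4. The 10 members were Stmn1, Stmn2, Stmn3, Tuba1a, Tuba1b, Tubb2a, Tubb2b, Tubb3, Tubb5 and Tubb6, out of 53599 gene symbols in the count table. They were found by gene symbol, and the genes were chosen by their levels in Sox4 against EV in these same libraries. Their levels and fold changes are therefore given as a description, with no test. The EV group (3 libraries, genotype label WT) received AAV8-TBG-Cre, an adeno-associated virus that carries Cre recombinase without Sox4 and is called the empty vector. The Sox4 group (3 libraries, genotype label Sox4) received an AAV8-TBG vector with HA-tagged mouse Sox4 and Cre joined by a self-cleaving peptide. By the methods the plasmid backbones differ: the one named empty vector holds a U6-sgRNA backbone and an hGH polyA signal, and the Sox4 one derives from a TBG plasmid with bGH. The TBG promoter that drove both vectors is active in hepatocytes, so both groups expressed Cre. The study's methods describe male Rosa-LSL-Cas9-EGFP mice on C57BL/6J, in which Cre switches on Cas9 and EGFP, so that both groups would carry these too. Mice were 4 to 8 weeks old at injection according to the same methods. Hepatocytes were freed by digestion of the liver and enriched on Percoll, a density medium. The methods count 3 animals a group, whereas the labels do not tie libraries to mice, so p-values measure the spread between libraries.

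Microtubules are hollow polymers of alpha- and beta-tubulin dimers. Each subunit is made from several genes, the isotypes, whose proteins are alike in the body of the molecule and differ most in the acidic C-terminal tail, the surface read by motors and by tubulin-modifying enzymes. Stathmins bind free tubulin dimers and destabilise microtubule ends, and phosphorylation releases the tubulin. Stmn1 is widespread and is high in dividing cells, whereas Stmn2 and Stmn3, like Tubb3, are best known from neurons. Tuba1a is the main alpha-tubulin of newborn neurons, and Tubb2b and Tubb3 are beta-tubulins of the developing nervous system. Tubb5 and Tuba1b are expressed in most dividing cells. Tubulin mRNA is also regulated by its own product. When free tubulin is in excess, the ribosome-bound factor encoded by Ttc5 recognises the first residues of new tubulin chains and the mRNA is degraded.

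The end of the coding sequence is shown for the beta-tubulin isotypes Tubb5, Tubb2a, Tubb2b and Tubb4b, because it encodes the tail that tells isotypes apart and because reads from identical stretches cannot be assigned to 1 gene. Each line holds the last 60 coding bases with the stop codon, from GENCODE M21 (GRCm38), written 5′ to 3′ on the coding strand. All lie within 1 exon. Capitals mark bases that differ from Tubb5 in a global alignment of the whole coding sequences. The stretches, all on the minus strand, are chr17:35834982-35835041 for Tubb5, chr13:34074468-34074527 for Tubb2a, chr13:34127471-34127530 for Tubb2b and chr2:25222308-25222367 for Tubb4b.
Tubb5: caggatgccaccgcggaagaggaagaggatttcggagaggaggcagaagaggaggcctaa
Tubb2a: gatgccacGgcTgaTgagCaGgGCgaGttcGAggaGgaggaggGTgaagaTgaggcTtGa
Tubb2b: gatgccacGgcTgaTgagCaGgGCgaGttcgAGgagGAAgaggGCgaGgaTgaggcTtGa
Tubb4b: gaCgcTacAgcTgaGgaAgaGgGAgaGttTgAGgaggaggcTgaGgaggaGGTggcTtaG

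Tuba1a and Tuba1b differed by 23 of 1356 coding bases and 2 of 451 residues. Tubb2a and Tubb2b differed by 47 of 1338 coding bases and by 2 residues. Tubb5 shared 84.6% of coding bases and 95.3% of residues with Tubb2a. Stmn1 and Stmn2, by contrast, shared 57.0% of residues over the longer of the 2 proteins.

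These identities bear on how far counts can be assigned. Of the stretches of 50 exonic bases of Tuba1a, 75.5% also occurred in another annotated gene, as did 75.1% of those of Tuba1b, with Tuba1c as the isotype that shared most with each. The share was 49.6% for Tubb2a and 36.9% for Tubb2b, mostly with each other. It was 18.9% for Stmn1, nearly all with the gene model Gm11223, and 0.0892% for Tubb5. None of the stretches of Stmn3, Tubb3 or Tubb6 occurred elsewhere. How reads that map to several places were counted is not given in the sources used here. Levels of Tuba1a, Tuba1b, Tubb2a and Tubb2b are therefore uncertain in their split. Outside the members, the share was 52.7% for Tuba1c, 41.3% for Tubb4b, mostly with the gene model Tubb4b-ps1, and 35.4% for Tuba4a, mostly with Stk16. The levels of these isotypes carry a like uncertainty. The gene model Gm49450 overlaps 26.2% of the exonic bases of Tuba1a and 22.7% of those of Tuba1b, and had at most 8 counts in any library.

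Sox4, the delivered gene, had 2, 0 and 3 counts in the EV libraries and 21697, 15097 and 11816 in the Sox4 libraries, at least 3631-fold higher against a floor of 3 counts per library (edgeR quasi-likelihood test, adjusted p = 2.61e-07). These counts do not separate vector from endogenous Sox4. The libraries held 15090629 to 16964860 counts, and a floor of 3 counts corresponded to 0.150 to 0.231 CPM. CPM is a count divided by the library size in units of 1000000, here with library sizes adjusted by the trimmed mean of M-values (TMM), under which the ratio of Sox4 to EV library sizes was 1.48, against 1.07 for total counts. The choice matters for size: the median log2 fold change of all 12691 genes tested was 0.04 with TMM and 0.51 with total counts alone. Hepatocyte markers stood at 122850 to 146043 CPM in sum in EV and at 85504 to 98908 in Sox4. Most of that sum was Alb, at 84584 to 108451 CPM in EV and 61968 to 73005 in Sox4. These sums rest on TMM library sizes and were not taken with total counts alone. Of the 10 hepatocyte markers, 7 were called lower and 3 (Apob, Ttr and Cps1) were not called. Among all genes tested, 29.0% were called higher in Sox4 at an adjusted p under 0.05 and 26.0% lower, and of all calls 52.7% were higher. With total counts alone that share was 79.9%.

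Of the 10 members, 7 passed the filter on low counts, and all 7 had every Sox4 library above every EV library. Over all genes tested, 33.1% had no such overlap. The members were picked on this contrast, so these counts describe the choice. The other 3 members, Stmn2, Stmn3 and Tubb3, had 0 counts in all 6 libraries. If reads of these genes were counted like others, this allows a level of up to 0.231 CPM in EV and 0.153 CPM in Sox4, counting error only. The annotation and the rule for overlapping genes are not given in the sources used here, so whether the zeros come from the counting was not tested. The median log2 fold change of the 7 was 3.28, with a range of 1.23 to 7.68, against 0.04 for all genes. With total counts alone the 7 values ran from 1.70 to 8.15. In hepatocyte bulk RNA, a change in the number of cells that express a gene and a change in its RNA per cell cannot be told apart.

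**Figure D1:**
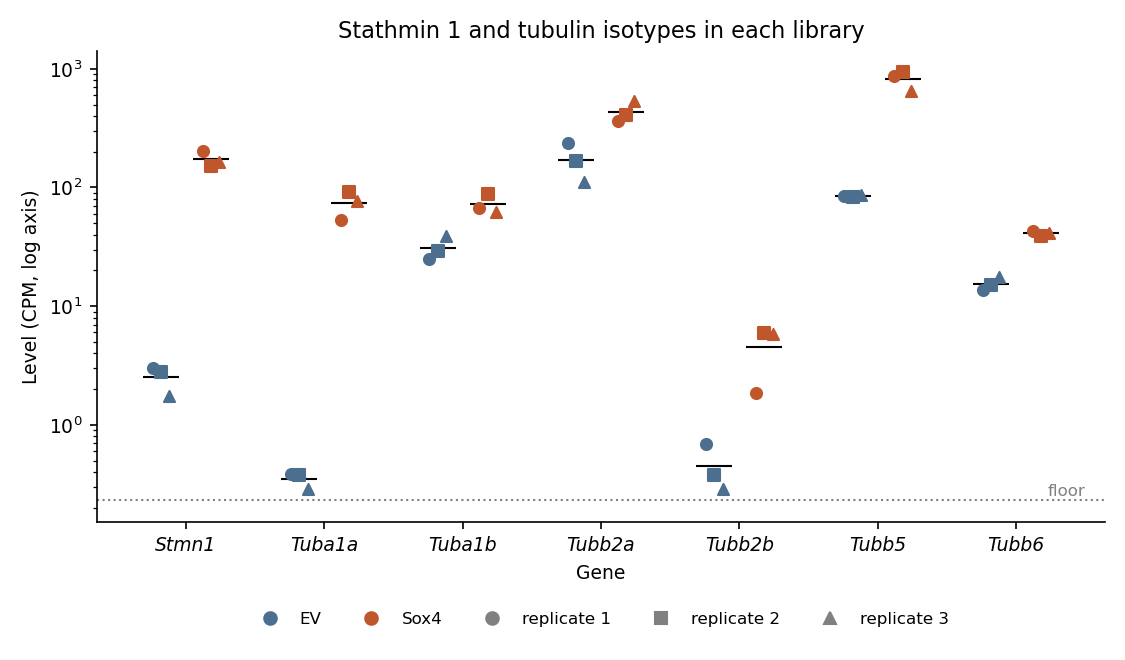
Level of each detected member (x axis) in CPM on a log axis (y axis), with 1 point per library, EV in blue, Sox4 in orange, marker shape for replicate, bars for group means and a dotted line at the highest floor of 3 counts (0.231 CPM). All Sox4 points lie above the EV points of the same gene, by the widest margin in Tuba1a and Stmn1, and Stmn2, Stmn3 and Tubb3, at 0 counts in every library, are not drawn.

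Stmn1, the widely expressed stathmin, had 3.01, 2.81 and 1.74 CPM in EV and 201, 151 and 166 CPM in Sox4. The lowest Sox4 library was thus far above the highest EV library. Mean levels were 2.52 ± 0.679 CPM (SD, n = 3) in EV and 173 ± 25.9 CPM in Sox4, a log2 fold change of 6.10 (SE 0.26), or 68.6-fold. In raw counts it went from 24 to 39 in EV to 2961 to 4020 in Sox4. Among the genes tested, its level lay at the 21.1st percentile in EV and at the 94.6th in Sox4. Stmn4, the remaining stathmin and a neuronal gene, had 0 counts in every library, so that Stmn1 was the one stathmin gene with counts. Proliferation markers, given further on, were higher in the same libraries, and their part in the level of Stmn1 was not tested.

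Among the alpha-tubulins, Tuba1a, the isotype of newborn neurons, went from near the floor to the 85.4th percentile of the genes tested. Its counts were 5, 5 and 4 in EV and 1062, 1791 and 1509 in Sox4. As CPM this was 0.385, 0.380 and 0.290 in EV and 53.2, 91.5 and 76.5 in Sox4, a log2 fold change of 7.68 (SE 0.25). The EV counts were so few that the fold of 206 rests on small numbers, and the gain in CPM is the firmer measure. The difference of mean log2 CPM, a measure apart from this fitted fold change, was 7.57 with a prior count of 0.5.

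Tuba1b, the alpha-tubulin of most dividing cells, was already present in EV. It had 24.9, 29.2 and 38.7 CPM in EV and 67.0, 88.5 and 62.7 CPM in Sox4, so the groups were apart but with less distance than for Tuba1a. The log2 fold change was 1.23 (SE 0.24), or 2.35-fold, and it was 1.07 to 1.41 when 1 library was left out. In Sox4, Tuba1a and Tuba1b thus stood at like levels, 73.7 ± 19.3 and 72.8 ± 13.8 CPM, although Tuba1a was lower in every EV library.

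Tubb5, the beta-tubulin of most dividing cells, had the largest gain in CPM of the members. It had 84.2, 83.1 and 86.3 CPM in EV, which is a narrow spread, and 867, 936 and 652 CPM in Sox4. Means were 84.5 ± 1.62 and 819 ± 148 CPM, a log2 fold change of 3.28 (SE 0.16), or 9.68-fold. Its level moved from the 85.4th to the 99.2nd percentile of the genes tested. Few of its stretches occurred in other genes, so its count depends least on how shared reads were treated among the highly expressed members.

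Tubb2a, a beta-tubulin found in many tissues, had 235, 167 and 112 CPM in EV and 363, 405 and 539 CPM in Sox4. EV libraries spread over more than the range seen in Tubb5, and the groups did not overlap. The log2 fold change was 1.35 (SE 0.35), and without EV replicate 3 it was 1.10. Tubb2b, its near copy and an isotype of the developing nervous system, had only 9, 5 and 4 counts in EV and 37, 116 and 116 in Sox4. As CPM this was 0.693, 0.380 and 0.290 in EV and 1.85, 5.93 and 5.88 in Sox4. Sox4 replicate 1 was below the other two, and the SE of 0.61 on a log2 fold change of 3.31 was the widest among the members. Its level in Sox4 was still low, at the 24.6th percentile.

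Tubb6, a more divergent beta-tubulin, had the smallest SE of a log2 fold change among the members. It had 13.8, 15.03 and 17.6 CPM in EV and 43.2, 38.7 and 41.1 CPM in Sox4, a log2 fold change of 1.40 (SE 0.11), or 2.65-fold. Tubb3, the neuronal isotype, was at 0 counts in every library. Of the beta-tubulin members, then, 4 had counts and all 4 were higher in each Sox4 library.

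Levels of different genes were compared per exonic length, as CPM divided by length in kilobases (RPKM) with merged exon lengths of GENCODE M21. In EV the order was led by Tubb4b at 148 RPKM, Tubb2a at 106, Tuba4a at 75.9 and Tuba1c at 53.3, followed by Tubb5 at 25.4, Tuba1b at 16.5 and Tubb6 at 6.35. Ranges over libraries overlapped between Tubb4b and Tubb2a and between Tubb2a and Tuba4a, so these neighbours were not separated. Stmn1 stood at 1.31 RPKM and Tuba1a and Tubb2b at 0.195 and 0.198.

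In Sox4 the same scale was led by Tubb2a at 271 RPKM and Tubb5 at 246, whose ranges of 226 to 334 and 196 to 281 overlapped. The places of Tubb2a, Tubb5 and Tubb4b depend on the length used, as given for the beta pool below. Tubb4b followed at 141 RPKM and Stmn1 at 89.9. Tuba1c at 53.8, Tuba4a at 42.2, Tuba1a at 40.9 and Tuba1b at 38.8 came next, and each overlapped the next one in its range. Stmn1 thus moved from 11th to 4th, and Tuba1a from 14th to 7th, among the 24 tubulin and stathmin genes.

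The make-up of each tubulin pool was expressed as the share of each isotype in the summed RPKM of 8 alpha- or 8 beta-tubulin genes. In the alpha pool, Tuba4a, an isotype of differentiated tissues, held 50.5%, 53.4% and 50.1% in EV and 27.0%, 21.5% and 22.2% in Sox4. Tuba1a held 0.132 ± 0.0234% in EV and 22.7 ± 4.91% in Sox4, and Tuba1b went from 11.3% to 21.5%. The alpha pool of EV was thus mostly Tuba4a and Tuba1c, whereas in Sox4 no isotype had a mean share above 30.0% on this scale of merged exon length. On the length of unshared sequence, Tuba1a, Tuba1b, Tuba1c and Tuba4a held 32.8%, 30.6%, 22.6% and 13.03% in Sox4.

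In the beta pool, Tubb4b held 52.2 ± 6.32% in EV and 20.8 ± 2.97% in Sox4, whereas Tubb5 held 9.002 ± 1.36% and 36.2 ± 6.06%. Tubb2a had like mean shares, 36.4% and 39.9%. On the length of unshared sequence, Tubb2a, Tubb5 and Tubb4b held 41.7%, 5.23% and 51.6% in EV. In Sox4 they held 51.1 ± 8.77%, 23.7 ± 4.84% and 23.1 ± 4.13%, so Tubb5 and Tubb4b were not apart on that scale and Tubb2a led. On merged exon length, the members together made up 11.4% of the alpha pool in EV and 44.2% in Sox4, and 47.8% and 78.9% of the beta pool. On the length of unshared sequence, Tuba1a held 0.268% of the alpha pool in EV and 32.8% in Sox4, and Tuba1b 22.2% and 30.6%. The members were picked on this contrast, so the rise of their joint share describes the choice.

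**Figure D2:**
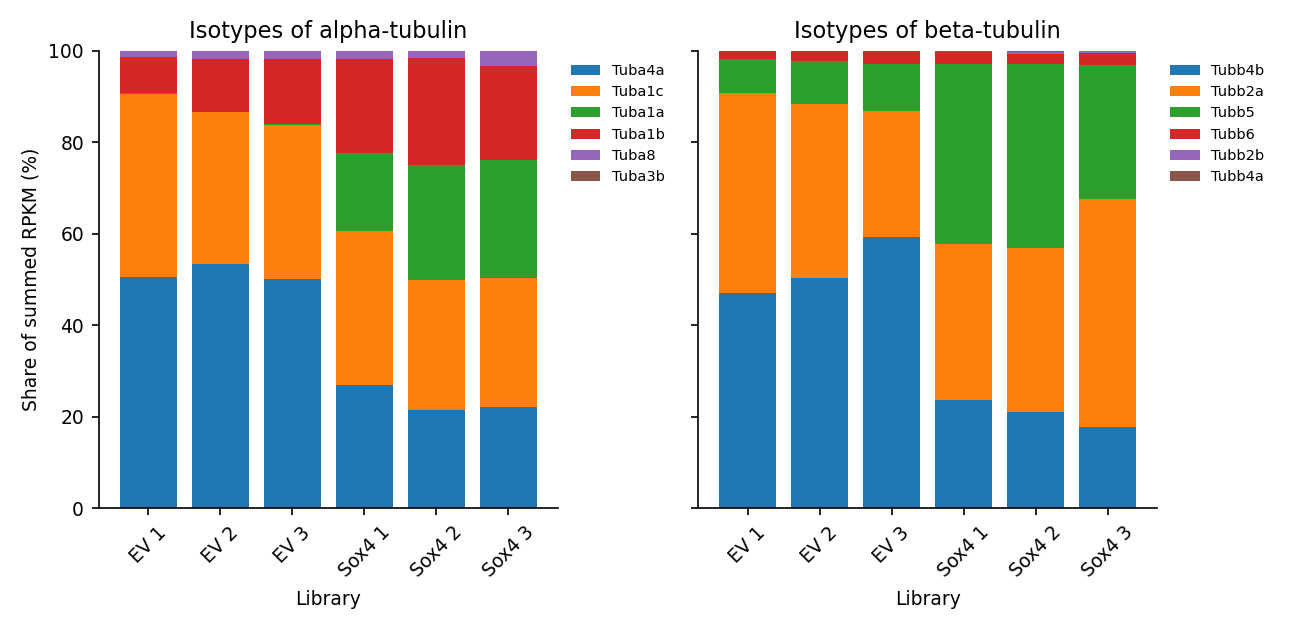
Share of each isotype in the summed RPKM (y axis, %) of alpha-tubulin (left) and beta-tubulin (right) in each of the 6 libraries (x axis), stacked to 100%. Tuba4a and Tubb4b hold the largest part of the EV bars, and Tuba1a, Tuba1b and Tubb5 take a larger part of every Sox4 bar than of any EV bar.

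The sums of the pools were set side by side, with no test. They rest on TMM library sizes, whose ratio of Sox4 to EV was 1.48, against 1.07 for total counts. The sums were not taken with total counts alone. The alpha sum was 148 ± 15.7 RPKM in EV and 180 ± 19.8 in Sox4, 1.21-fold, with EV replicate 1 at 165 RPKM above Sox4 replicate 3 at 164. The beta sum was 286 ± 43.1 and 678 ± 19.96, 2.37-fold, with no overlap. The ratio of beta to alpha was 2.03, 2.02 and 1.74 in EV and 3.83, 3.47 and 4.09 in Sox4. This ratio depends on shared sequence: when counts were divided only by the length of sequence found in no other gene, it was 1.81, 1.73 and 1.41 in EV and 2.15, 1.79 and 2.32 in Sox4, and EV replicate 1 then stood above Sox4 replicate 2. The sums depend on it too: so divided, mean alpha was 300 RPKM in EV and 506 in Sox4, 1.69-fold, and mean beta 495 and 1045, 2.11-fold. On that scale Tubb5 held 23.7% of the beta pool in Sox4.

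The other tubulins and Stmn4, 14 genes in all, were tested in the fit across all genes. They are the family genes left after the members were chosen on this contrast, so their counts and median also depend on that choice. Of these, 8 passed the filter and 2 were called higher (25%, against 29.0% of all genes). In the other direction 1 was called lower (12.5%, against 26.0%), and 5 were not called. Their median log2 fold change was 0.03. Tubb4a, a beta-tubulin of brain, had 0, 0 and 1 counts in EV and 60, 91 and 48 in Sox4, at least 14.9-fold higher (edgeR adjusted p = 5.07e-05). Tuba8 had 4.70, 5.09 and 6.10 CPM in EV and 6.92, 7.46 and 12.4 CPM in Sox4, a log2 fold change of 0.75 (edgeR adjusted p = 0.0321). The call was lost when EV replicate 1, EV replicate 2 or Sox4 replicate 3 was left out, where the log2 fold change was 0.66, 0.71 and 0.44.

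Tuba4a was the tubulin called lower. It had 308, 265 and 270 CPM in EV and 173, 161 and 135 CPM in Sox4, and its log2 fold change was -0.85 (SE 0.13, edgeR adjusted p = 5.78e-04). Its exons overlap those of Stk16 on the opposite strand over 37.3% of their length, and Stk16 had up to 979 counts in a library, so the 2 cannot be wholly told apart without a stated strand setting.

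Tubb4b had the highest level per length in EV of the 5 tubulins that were not called. This isotype, broadly expressed and known from cilia, had 330, 285 and 313 CPM in EV and 328, 308 and 249 CPM in Sox4 (log2 fold change -0.07, SE 0.14, edgeR adjusted p = 0.704). Tuba1c had a log2 fold change of 0.01 (SE 0.20, edgeR adjusted p = 0.954). For Tubg1, the gamma-tubulin that nucleates microtubules, it was 0.04 (SE 0.13). The centriolar delta- and epsilon-tubulins, Tubd1 and Tube1, stood at -0.29 (SE 0.22) and 0.35 (SE 0.23). With total counts alone, Tubb4b was at 0.40 and Tubd1 at 0.18, and Tuba1c, Tubg1 and Tube1 were called higher, at 0.48, 0.51 and 0.82. Tubg2 had 0, 3 and 0 counts in EV and 15, 10 and 8 in Sox4 and did not pass the filter, Tuba3b had 1 count in all, and Tuba3a, Tubal3, Tubb1 and Stmn4 had none.

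**Figure D3:**
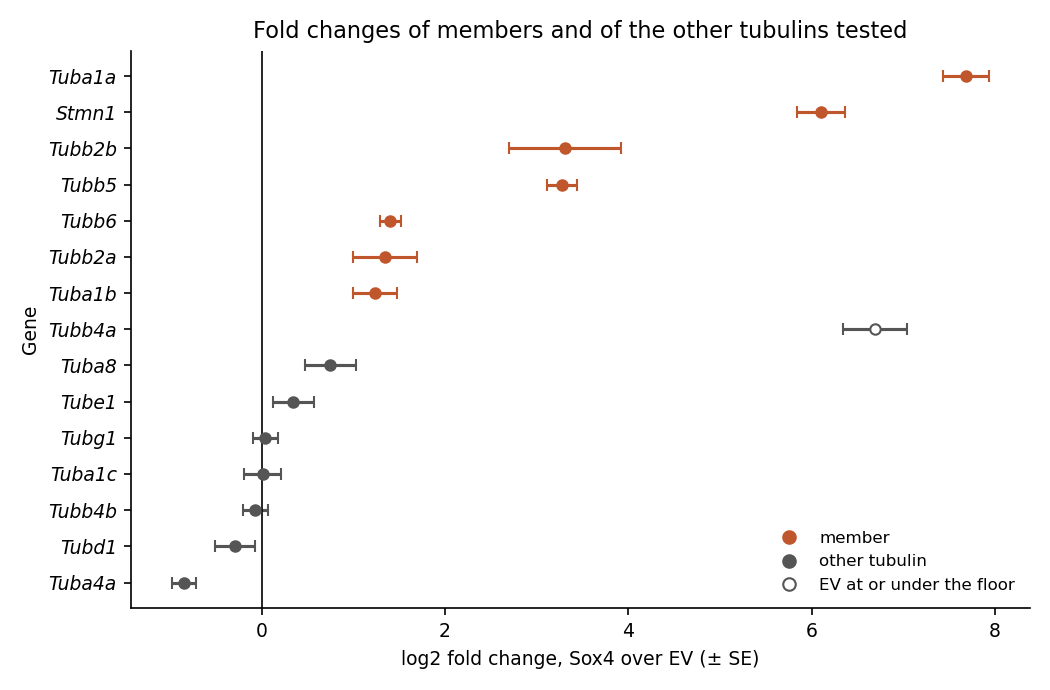
Log2 fold change of Sox4 over EV (x axis, bars ± SE, n = 3 libraries a group) of the 7 members tested (orange) and the 8 other tubulins tested (grey), with the open circle for Tubb4a, whose fitted value depends on the prior count because EV was at or under the floor. Members lie between 1.23 and 7.68, and of the other tubulins Tuba4a lies lowest at -0.85.

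Promoters of 6 members (Stmn3, Tuba1a, Tuba1b, Tubb2a, Tubb3 and Tubb5) were read from the RefSeq table for GRCm38.p6. The 250 bases before the start site are shown for the 4 detected members among them, because these are the members with counts whose upstream sequence can be set beside their levels. They are chr15:98953502-98953751 for Tuba1a, chr15:98934391-98934640 for Tuba1b, chr13:34078009-34078258 for Tubb2a and chr17:35838302-35838551 for Tubb5, all on the minus strand and written 5′ to 3′ on that strand. Capitals mark matches to the motifs searched.
Tuba1a: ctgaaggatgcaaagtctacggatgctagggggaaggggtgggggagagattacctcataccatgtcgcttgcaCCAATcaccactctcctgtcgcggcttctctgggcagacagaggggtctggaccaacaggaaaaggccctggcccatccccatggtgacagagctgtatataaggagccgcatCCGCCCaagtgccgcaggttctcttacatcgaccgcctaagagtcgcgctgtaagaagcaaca
Tuba1b: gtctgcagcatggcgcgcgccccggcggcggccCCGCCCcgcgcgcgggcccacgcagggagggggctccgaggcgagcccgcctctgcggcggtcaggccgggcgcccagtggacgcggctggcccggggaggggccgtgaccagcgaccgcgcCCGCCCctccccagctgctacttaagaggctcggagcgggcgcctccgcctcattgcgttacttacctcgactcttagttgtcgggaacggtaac
Tubb2a: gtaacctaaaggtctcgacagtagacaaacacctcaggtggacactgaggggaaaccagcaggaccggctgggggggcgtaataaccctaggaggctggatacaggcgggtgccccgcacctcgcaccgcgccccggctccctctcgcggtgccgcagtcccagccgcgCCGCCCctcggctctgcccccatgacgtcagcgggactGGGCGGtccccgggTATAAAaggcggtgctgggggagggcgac
Tubb5: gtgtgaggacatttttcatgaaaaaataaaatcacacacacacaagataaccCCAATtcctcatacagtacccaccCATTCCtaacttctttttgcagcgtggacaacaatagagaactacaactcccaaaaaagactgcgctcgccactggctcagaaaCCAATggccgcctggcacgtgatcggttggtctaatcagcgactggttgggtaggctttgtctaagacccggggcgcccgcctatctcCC

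The motifs were searched on both strands in the 300 bases from 250 before to 50 after the start, none overlapping another in these promoters. The letters were AACAANG for SOX factors, TATAAA for the TATA box, CCAAT for the box of that name, GGGCGG for the GC box, TGANTCA for AP-1 and GGAATG for TEAD factors. Of all 32851 promoters in the table, 14.1% held the SOX motif, 13.6% the TATA box, 37.4% the CCAAT box, 35.7% the GC box, 7.81% the AP-1 motif and 14.7% the TEAD motif. None of the 6 promoters held AACAANG in this window, which says only that these letters were not found there. The paper writes the SOX motif as CTTTGT or ACAAAG, which was not among the motifs searched. Read by eye, the printed Tubb5 stretch holds ctttgt and the Stmn3 promoter holds acaaag. No share over all promoters was taken for these letters. Tubb5 held 2 CCAAT boxes, 2 GC boxes (1 of them begins at the end of the printed stretch) and 1 TEAD motif. Tuba1a held 1 CCAAT box and 1 GC box, Tuba1b 2 GC boxes, and Tubb2a a TATA box and 2 GC boxes. The undetected Tubb3 held 1 CCAAT box and 2 GC boxes, and Stmn3 held 1 TEAD motif, so the motifs did not separate detected from undetected members. GC content was 59.0% for Tuba1a, 72.7% for Tuba1b, 67.0% for Tubb2a and 55.0% for Tubb5, against a median of 52.7%.

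Genes that act on tubulin and microtubules outside the members were described as a list of 134, the 14 other tubulins and Stmn4 included. Of the 107 that passed the filter, 50 were called higher (46.7%, against 29.0% of all genes) and 9 lower (8.41%, against 26.0%), and the median log2 fold change was 0.36. With total counts alone, 81 were called higher and 3 lower. Without Sox4 replicate 1, 16 were called lower in place of 9, among them 4 folding and autoregulation genes and 5 motors.

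Nucleation genes, which start new microtubules with gamma-tubulin, had 7 of 14 called higher and 1 lower. Akap9, a scaffold that anchors gamma-tubulin at the Golgi and centrosome, had 51.2, 56.5 and 58.4 CPM in EV and 121, 122 and 129 in Sox4 (log2 fold change 1.17, edgeR adjusted p = 1.59e-05). Tpx2, a spindle assembly factor, had at most 0.304 CPM in EV and 4.36, 6.23 and 3.90 CPM in Sox4 (edgeR adjusted p = 1.40e-04). Mzt2, a small subunit of the gamma-tubulin ring, was lower, with a log2 fold change of -1.08 (edgeR adjusted p = 0.00142).

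Folding and autoregulation genes had 6 of 23 called higher and none lower, near the 29.0% called higher among all genes. Vbp1, a subunit of the prefoldin that delivers new tubulin to its chaperone, had a log2 fold change of 1.14 (edgeR adjusted p = 4.93e-04). Ttc5, the sensor of tubulin autoregulation, had 9.79, 8.88 and 9.37 CPM in EV and 16.5, 16.6 and 16.4 in Sox4. Its log2 fold change was 0.82 (SE 0.04, edgeR adjusted p = 6.98e-04). The first 12 coding bases, which encode the stretch that this sensor recognises, are set side by side, with capitals where a base differs from Tuba1a or, for beta-tubulins, from Tubb5.
Tuba1a: atgcgtgagtgc
Tuba1b: atgcgtgagtgc
Tuba4a: atgcgCgagtgc
Tubb5: atgagggaaatc
Tubb2a: atgCgCgaGatc
Tubb2b: atgCgAgaGatc
Tubb4b: atgagggaGatc
They differ from the first line of their family by at most 3 bases.

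Genes of lattice and plus-end binding had 10 of 18 called higher and 3 lower. Camsap1, which binds minus ends, had 10.6, 11.5 and 10.8 CPM in EV and 47.8, 47.2 and 42.0 in Sox4. Its log2 fold change was 2.06 (edgeR adjusted p = 1.49e-06). Clasp1, which stabilises plus ends, was at 1.97 (edgeR adjusted p = 1.72e-06). Mtus1, a microtubule-associated protein, was lower at -0.71 (edgeR adjusted p = 0.00114) and Mapre3, a plus-end tracking protein, at -0.50 (edgeR adjusted p = 0.00250). Neither of these 2 was called with total counts alone.

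Severing and depolymerising genes had 7 of 10 called higher and none lower. Katnal1, a katanin-like severing enzyme, had a log2 fold change of 1.15 (edgeR adjusted p = 2.00e-04). Fignl1, a relative of the severing enzyme fidgetin, was at or under the floor in EV and at least 12.1-fold higher in Sox4 (edgeR adjusted p = 3.87e-04).

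Tubulin-modifying genes had 9 of 14 called higher and 2 lower. Vash2, a carboxypeptidase that removes the last tyrosine of alpha-tubulin, had 0 CPM in every EV library and 2.11, 3.68 and 5.37 CPM in Sox4, at least 16.5-fold higher (edgeR adjusted p = 1.79e-04). Ttll12, of the tubulin tyrosine ligase-like family, was higher by 0.68 on the log2 scale (edgeR adjusted p = 0.00112). Agbl3, a deglutamylase, was lower at -1.39 (edgeR adjusted p = 0.00219). Sirt2, a deacetylase of tubulin, was at -0.37 (edgeR adjusted p = 0.0259) and at 0.10 with total counts alone, and its call was lost without a filter on low counts, without EV replicate 1 or 2 and without Sox4 replicate 2 or 3.

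Interphase motors had 9 of 20 called higher and 2 lower. Dync1i2, an intermediate chain of cytoplasmic dynein, had a log2 fold change of 1.42 (edgeR adjusted p = 1.61e-05). Kif3c, a kinesin-2 motor, had at most 0.456 CPM in EV and 4.86, 3.98 and 4.66 CPM in Sox4 (edgeR adjusted p = 8.02e-05). Kif13b, a kinesin-3 motor, and Klc4, a kinesin light chain, were lower at -0.79 and -0.76 (edgeR adjusted p = 0.001005 and 0.00761), and neither was called with total counts alone.

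**Figure D4:**
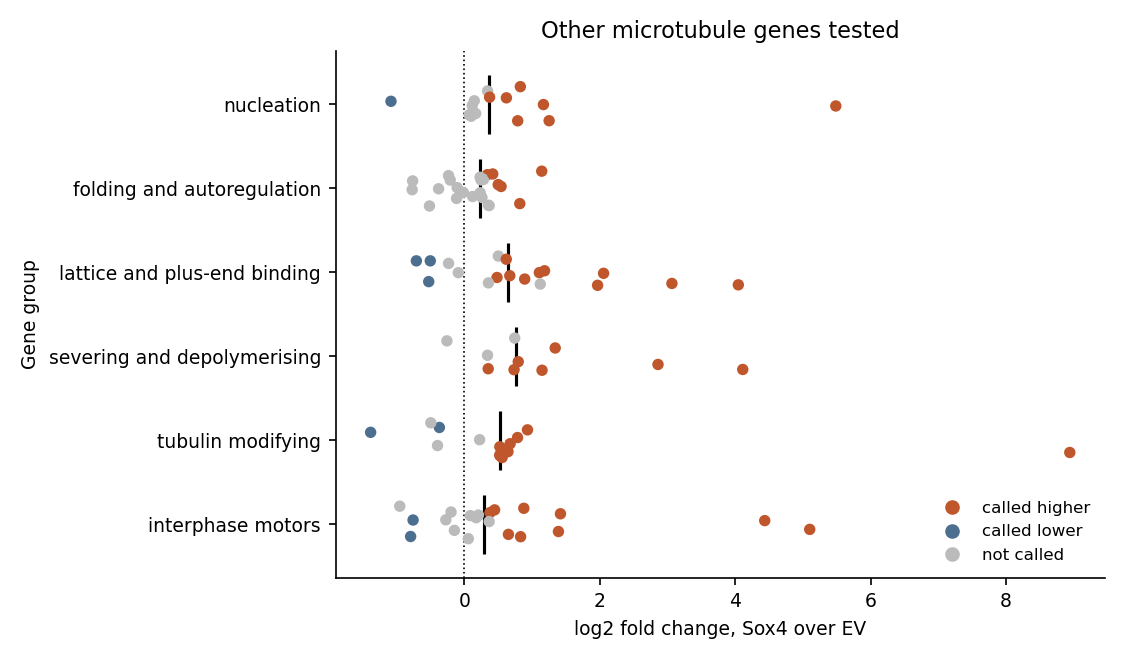
Log2 fold change of Sox4 over EV (x axis) of each tested gene of 6 groups of microtubule genes (y axis), orange for called higher, blue for called lower, grey for not called, with a black bar at the group median; genes near the floor in EV, such as Vash2 at the far right, have fitted values that depend on the prior count. Medians run from 0.23 in folding and autoregulation to 0.77 in severing and depolymerising.

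The 5 genes whose profile over the 6 libraries was most like that of the members were found by the Euclidean distance of mean-centred log2 CPM to the mean profile of the 7 detected members. Among 11470 genes, they were Bcl2l11, which encodes the apoptosis factor Bim, Ajuba, a LIM-domain protein, Zfp334, a zinc finger protein, Enc1, a Kelch-family protein, and Jpt1, a small microtubule-associated protein. Distances ran from 0.326 to 0.464. Tubb5 lay at 0.551 from the same mean profile and Tuba1a at 4.79, so the mean stands nearest to genes with a fold like that of Tubb5. Ajuba, for example, had 10.8, 8.73 and 10.8 CPM in EV and 89.3, 124 and 96.1 CPM in Sox4.

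Markers of other states and cell types were read in the same libraries. Of 12 proliferation markers, all 12 were called higher, and their summed level lay between 12.1 and 16.8 CPM in EV and between 58.6 and 102 CPM in Sox4. Ccnb1, the mitotic cyclin, was at 0 in every EV library. The part of proliferation in the levels of Stmn1, Tuba1b and Tubb5 was not tested.

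Markers of neurons, the cells from which several members are known, were near 0 apart from Syt1. Of 16 listed, 6 (Elavl2, Elavl3, Snap25, Gap43, Ncam1 and Uchl1) had 0 counts in all libraries and 6 more had none in EV. Only Syt1 passed the filter, and it was lower in Sox4, with a log2 fold change of -1.47 (edgeR adjusted p = 1.75e-04). EV libraries summed to 13.1 to 20.3 CPM over the list and Sox4 libraries to 6.37 to 7.55.

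Markers of other cells of the liver were then read. Cholangiocyte markers summed to 27.8 to 43.8 CPM in EV against 72.3 to 85.3 in Sox4, with 2 of 4 tested called higher, Krt7 and Krt19 at 0 in EV and about as much from Spp1 as from the rest of the list in Sox4. Markers of stellate cells or fibroblasts summed to 8.78 to 47.3 and 87.6 to 145 CPM, with 4 of 5 higher and Acta2 at 0 in EV. Most of that sum was Reln, at 7.09, 22.6 and 37.5 CPM in EV and 126, 117 and 50.8 CPM in Sox4. Kupffer cell markers summed to 14.4 to 30.1 and 32.0 to 73.7 CPM, with 5 of 11 higher, and endothelial markers to 24.2 to 34.9 and 24.9 to 52.7 CPM, with 3 of 10 higher and 1 lower, near the 29.0% called higher among all genes, and with overlapping sums. Lymphoid and neutrophil markers summed to at most 1.33 CPM with overlap of the groups, and with Ms4a1 and Ly6g at 0. The erythroid list summed to 93.0 to 126 CPM in EV against 4.97 to 15.5 in Sox4, with nearly all of the EV signal from Alas2, the only gene of the list past the filter. At low counts, 2 globin genes went the other way. Hba-a1 had 2, 2 and 2 counts in EV and 4, 11 and 8 in Sox4, and Hbb-bs 3, 0 and 5 against 13, 22 and 9. The part of any of these cell types in the members' levels was not tested.

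**Figure D5:**
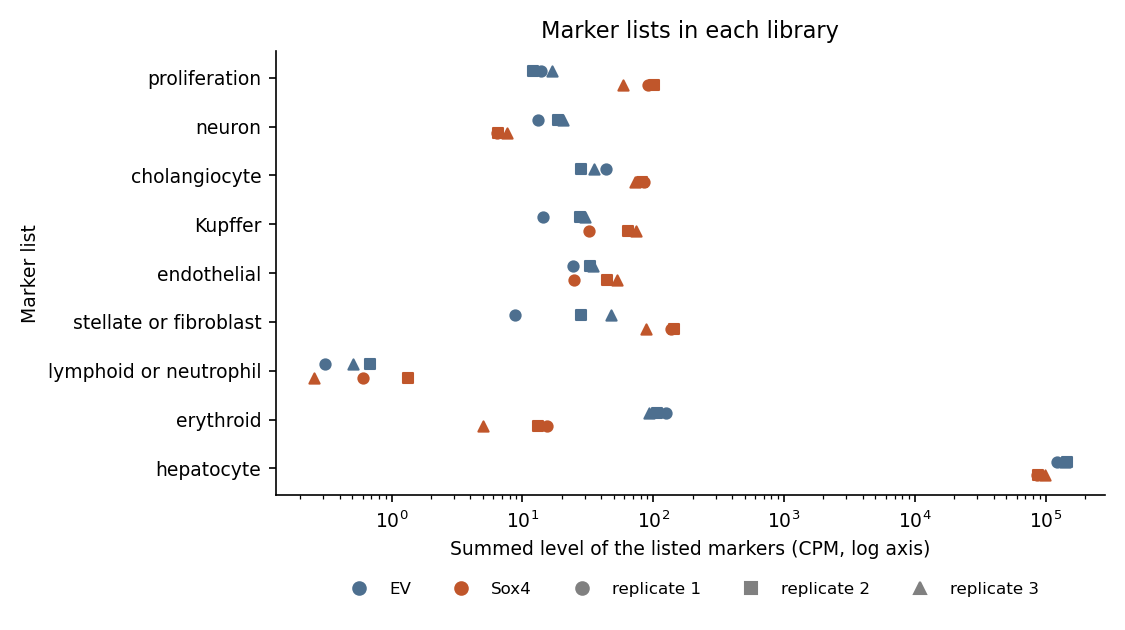
Summed level of each marker list (y axis) in CPM on a log axis (x axis), with 1 point per library, EV in blue and Sox4 in orange. Proliferation, cholangiocyte, Kupffer and stellate or fibroblast sums are higher in every Sox4 library than in any EV library. Neuron, erythroid and hepatocyte sums are lower with TMM library sizes and come mostly from Syt1, Alas2 and Alb in EV. The endothelial sums overlap, and the lymphoid or neutrophil list stays at or below 1.33 CPM.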

How the data were processed

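RNA-seq of hepatocytes was analysed from 3 EV and 3 Sox4 libraries, grouped by their labels. Per the labels, the authors aligned reads to GRCm39 with STAR 2.7.10b and assigned them to genes with featureCounts 2.0.1. The table used here holds the raw counts they deposited. Annotation release, strand and handling of multi-mapped reads are not given in the sources used here. A deposited normalized table was not used, because its header is out of line with its values.

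Differences were fitted with edgeR 4.0.16 in R 4.3.3 (quasi-likelihood F test, robust, TMM, filterByExpr with a minimum count of 10 and total of 15, Benjamini-Hochberg over all 12691 genes tested, threshold 0.05). SEs were computed from the spread of log2 CPM (prior count of 2) in each group. Levels are CPM, mean ± SD. Alternatives used limma 3.58.1 and DESeq2 1.42.0. Replicate pairs differed by more than counting noise (chi-square per degree of freedom 19.4 to 72.6). Floors and bounds of 3 counts per library cover counting error only, since PCR copies are not independent molecules.

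Members and gene lists were chosen with earlier results of these data known. Genes named are the members, the other tubulins and stathmin, up to 2 genes in each direction with the smallest adjusted p per microtubule group (mean count of at least 20), the 5 most similar profiles, Sox4 and marker lists; Ccnb1 and Syt1 were named after their values were seen. Coding sequence, exon lengths and shared stretches came from GENCODE M21 and promoters from RefSeq, both on GRCm38, so no positions of the counted genes on GRCm39 are given. Some list members and sequences are counted in totals but are not reported here.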

Additional observations from a re-analysis of the deposited data

How the results depend on the processing

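The 7 detected members kept a positive log2 fold change in every alternative in which they were fitted, and 84 of their 90 values moved by less than the replicate spread. The other 6 came from total counts alone. Their median of 3.28 was 3.75 with total counts alone, 2.37 with a mean count of at least 50, which removes Tubb2b, and 3.06 to 3.26 without 1 library. Over all genes, total counts alone called 6468 higher and 1624 lower, against 3684 and 3306, and among the other microtubule genes 81 and 3, against 50 and 9. Without 1 library the latter were 43 to 51 and 8 to 16. Among tubulins not called, total counts alone turned Tubb4b to 0.40 and Tubd1 to 0.18 and, among named genes, Sirt2 to 0.10. Leaving out 1 library turned values near 0, with a range of -0.12 to 0.18 for Tuba1c, -0.16 to 0.044 for Tubb4b and -0.082 to 0.12 for Tubg1. For these turns, and for the moves under total counts, the cause was not tested. By group, total counts alone called 6 other tubulins, 13 nucleation, 16 folding and 14 motor genes higher, and 0 lattice, 1 modifying and 0 motor genes lower. Limma-voom and a mean count of at least 50 each called 1 other tubulin higher, the latter also 4 severing genes, and without a filter 2 folding genes and 1 modifying gene were lower. Calls of Mtus1, Mapre3, Kif13b and Klc4 were lost with total counts alone, that of Tuba8 with limma-voom and that of Sirt2, at -0.33, without a filter.

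Without division by length, Tuba1a held 0.0804% of the alpha pool in EV and 17.0% in Sox4, Tuba4a 64.0% and 36.0%, and Tubb5 14.7% and 51.0% of the beta pool. With the length of unshared sequence, chosen after seeing the data, Tuba1a held 0.268% and 32.8%, Tuba4a 39.2% and 13.03%, and Tubb5 5.23% and 23.7%. The fit with a replicate block called 3862 genes higher and 3500 lower, 54 and 13 of them other microtubule genes, and gave a member median of 3.19. Deviations of same-numbered libraries correlated at 0.27, -0.09 and 0.13. The labels do not say whether such libraries share more than a number, and these values cannot settle it. A limma test on the deposited normalized values was planned and not run. Depth limits Stmn2, Stmn3 and Tubb3, at 0 counts, and the folds of Tuba1a and Tubb2b, which rest on 4 to 9 EV counts.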
